A study of Mus musculus with 8 samples.

Results

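Wnt ligands, their Frizzled receptors and their secreted antagonists were followed in 4 primary cultures of mouse hind limb muscle. The members are all probe sets whose 1 gene symbol was Wnt, Fzd, Sfrp or Dkk with a number, or Wif1 or Frzb. There were 76 such probe sets, for 39 genes, among 45037 probe sets: 32 for 19 ligand genes, 26 for 10 receptor genes and 18 for 10 antagonist genes. MACS replicates 2 and 3 had been purified with magnetic beads as Sca1-positive, CD45-negative cells, with more than 80% Sca1-positive and less than 1% CD45-positive cells by flow cytometry. PP6 replicates 2 and 3 had been obtained by preplating, which separates cells by how fast they attach, and no purity was given for them. All 4 grew in F10 Ham medium with 20% serum, and muscle cells were named as the contaminating cells. The labels give no genotype, strain, age or sex. The design text counts 2 samples, and nothing says that the cultures of a group came from separate animals, so p-values measure only the spread between these cultures. RNA of each culture was hybridised to an MOE430A and an MOE430B array. Its concentration in ng/ul was 55 and 65 in MACS, and 35 and 15 in PP6.

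Wnt proteins are secreted, lipid-modified growth factors that bind Frizzled receptors on nearby cells. With the co-receptors Lrp5 and Lrp6 this stabilises beta-catenin, which then acts with TCF/LEF factors on target genes, while other Wnts act on cell polarity or calcium through Frizzled without beta-catenin. Sfrp proteins, Frzb and Wif1 bind Wnts outside the cell, and Dkk1, Dkk2 and Dkk4 bind Lrp5 and Lrp6. In mouse muscle, Wnt7a acting on Fzd7 is known to expand satellite cells, the resident precursors, and beta-catenin signalling takes part in myoblast differentiation.

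Values are log2 of the deposited signal, and differences are PP6 minus MACS on that scale. Signals of different probe sets cannot be ranked against each other, and the array types have their own scale: 100 probe sets present on both read 2.09 log2 units higher on MOE430B as a median. A probe set was tested when it stood above the median of its array in at least 2 of the 4 cultures, and 53.2% of all probe sets did. Of the members, 28 of 76 did, from 21 of 39 genes: 11 ligands, 8 receptors and, of the antagonists, only Sfrp1 and Sfrp4. A further 39 members were above the array median in no culture and 9 in 1. Muscle cells were named as the contaminating cells, so muscle genes do not identify the purified cells. Of the satellite cell and myoblast markers, Myf5 was not tested. Pax7, Myod1, Des, Cdh15, Itga7, Chrna1 and Megf10 were above the array median in all 4 cultures. The muscle differentiation markers Acta1, Tnnc1, Tnnt1, Tnni1, Myh3 and Mylpf lay below it in both MACS cultures. Ptprc, the gene of CD45, lay below it in both MACS cultures, and Ly6a, the gene of Sca1, had no probe set of 1 symbol. In total RNA of a mixed culture, fewer cells of a type and less RNA per cell cannot be told apart.

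On their main probe sets, the ligands Wnt9a and Wnt7a and the antagonist Sfrp1 were higher in both PP6 cultures than in both MACS cultures. The differences were 2.47, 1.91 and 1.22 log2 units, with the smallest p-values of the tested members. Wnt9a met the rule for testing only through PP6, which fixed its sign. Other probe sets of these 3 genes gave -0.18 for Wnt9a, 0.18 and -0.61 for Wnt7a, and -0.08 to 0.97 for Sfrp1. None of the 28 passed the adjusted threshold of 0.05 in limma, and 0 of all 23963 tested probe sets did (0% higher and 0% lower). Among the 28, these 3 were higher and 0 lower with an unadjusted p under 0.05. Of all tested probe sets 5.69% passed that level upwards and 5.83% downwards, and a count of 3 is too small to set the members apart from them. Of 13 tested Frizzled probe sets, 8 overlapped between the groups, near the 55.8% of all tested probe sets that did. The promoters of the 2 ligands are printed because they carry the largest differences among the tested ligands, and that of Wnt2 because it is the tested ligand with the largest difference in the other direction. They come from RefSeq (GRCm38.p6) and run from 250 bases before the start site to 50 after it, 5′ to 3′ on the gene's strand. Capitals mark E-boxes (CANNTG on either strand), the general letters that basic helix-loop-helix factors as a class can bind. The windows are chr11:59306680-59306979 (plus strand) for Wnt9a, chr6:91411304-91411603 (minus strand) for Wnt7a and chr6:18030396-18030695 (minus strand) for Wnt2.
Wnt9a: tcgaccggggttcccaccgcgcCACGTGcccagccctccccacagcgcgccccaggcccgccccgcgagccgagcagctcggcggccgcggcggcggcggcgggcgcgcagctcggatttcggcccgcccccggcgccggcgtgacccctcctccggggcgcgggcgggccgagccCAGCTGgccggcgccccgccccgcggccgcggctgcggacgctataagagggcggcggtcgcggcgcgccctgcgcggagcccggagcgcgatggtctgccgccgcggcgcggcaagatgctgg
Wnt7a: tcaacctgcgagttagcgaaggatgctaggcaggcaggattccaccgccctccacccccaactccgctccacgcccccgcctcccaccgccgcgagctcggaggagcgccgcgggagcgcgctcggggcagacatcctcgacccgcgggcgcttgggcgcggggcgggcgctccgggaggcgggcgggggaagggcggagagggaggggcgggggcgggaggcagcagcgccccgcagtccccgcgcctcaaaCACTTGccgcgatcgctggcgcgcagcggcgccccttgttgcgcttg
Wnt2: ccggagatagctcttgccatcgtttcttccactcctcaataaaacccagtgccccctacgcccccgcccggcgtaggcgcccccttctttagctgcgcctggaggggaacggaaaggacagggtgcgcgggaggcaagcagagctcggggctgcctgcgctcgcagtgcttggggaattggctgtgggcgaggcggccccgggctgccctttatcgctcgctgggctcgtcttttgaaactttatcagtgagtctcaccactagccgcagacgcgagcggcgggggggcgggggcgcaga
Counted from the start site as 1, the E-boxes of Wnt9a begin at -228 (CACGTG) and -74 (CAGCTG) and that of Wnt7a at 4 (CACTTG), and Wnt2 has none in this window. An E-box is found in 72.3% of all 32851 promoter windows and in 21 of the 30 windows of the 27 member genes in the table. The TCF/LEF core CTTTGA, searched on both strands, occurs in none of these 3 windows, in 5 of the 30 and in 16% of all windows. A match describes letters and shows no binding, and its absence says nothing about the factor.

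Among the ligands, Wnt9a, known for its role in joint formation, showed the largest difference in either direction. Its MOE430B probe set read 8.41 and 8.27 in MACS and 10.47 and 11.14 in PP6. Both MACS cultures lay below the array median and both PP6 cultures above it. The difference was 2.47 ± 0.46 log2 units (SE), a 5.53-fold higher signal, with a p of 0.002 and an adjusted p of 0.295 in limma. With signals under the array median raised to it (a floor), the difference was 1.16. Because this probe set passed the filter only through PP6, its sign was fixed by the filter. The tested members held 3 such probe sets, and all tested probe sets 2.86%. The other Wnt9a probe set, on MOE430A, was dim in all cultures and read 7.47 and 7.82 in MACS and 6.33 and 8.59 in PP6, a difference of -0.18. The 2 probe sets thus do not show the same difference. Wnt3a, the neighbour of Wnt9a on chromosome 11 and a strong activator of beta-catenin, read 9.36 and 9.17 in MACS and 9.14 and 10.03 in PP6. Its groups overlapped, with a difference of 0.32 ± 0.52.

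Wnt7a was measured above the array median in all 4 cultures by a probe set on MOE430B. It read 9.89 and 10.84 in MACS and 11.99 and 12.55 in PP6, so the lowest PP6 culture stood more than 1 log2 unit above the highest MACS culture. The difference was 1.91 ± 0.40 (SE), or 3.76-fold, with a p of 0.0037 and an adjusted p of 0.311 in limma. Leaving out MACS replicate 2 gave 1.43 and leaving out MACS replicate 3 gave 2.39. Its other probe sets were below the filter. One differed by 0.18, and the third by -0.61, with 8.69 and 8.24 in MACS against 9.68 and 6.03 in PP6. Fzd7, the receptor named above for Wnt7a in satellite cells, read 9.76 and 9.51 in MACS and 9.58 and 10.12 in PP6. Its difference of 0.22 ± 0.41 was smaller than its error, and its second probe set, far below the array median, gave -0.11.

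Wnt2 and Wnt7b were the 2 tested ligands lower in both PP6 cultures. Wnt2, a beta-catenin activator known from lung and placenta, read 9.81 and 9.53 in MACS and 7.0 and 8.82 in PP6. Both MACS cultures were above the array median and both PP6 cultures below it, so here too the filter fixed the sign, as it did for 3.09% of all tested probe sets. The difference was -1.76 ± 0.86 (SE), with a p of 0.0887 and an adjusted p of 0.51 in limma. It rested largely on PP6 replicate 2: without that culture it was -0.85, and under the floor it was -0.38. Wnt7b, which acts in lung and bone development, read 10.23 and 10.60 in MACS and 9.41 and 9.85 in PP6. Its groups did not overlap, at -0.78 ± 0.37 and an adjusted p of 0.499 in limma, and the dim second probe set gave -0.08. Wnt7a and Wnt7b are close relatives by sequence. Their main probe sets differed in opposite directions, although neither passed the adjusted test. The other 2 Wnt7a probe sets, at 0.18 and -0.61, did not share 1 sign, so the contrast holds for the main probe sets only.

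The other 7 tested ligands, Wnt3a included, overlapped between the groups, except for a narrow gap in Wnt8b. Wnt5a, the main ligand of the polarity and calcium branches, read 10.73 and 11.55 in MACS and 11.20 and 10.60 in PP6. Its difference was -0.24 ± 0.39 (SE), and its 4 probe sets all lay between -0.75 and -0.05. Wnt11, also mostly a ligand of those branches, read 10.02 and 9.21 in MACS against 9.78 and 9.73 in PP6, a difference of 0.14 ± 0.45. Wnt8b, known from the embryonic forebrain, read 10.47 and 9.18 in MACS and 10.53 and 10.55 in PP6, so both PP6 cultures were just above MACS replicate 2 and 1 MACS culture was low. Its 3 probe sets differed by 0.60 to 0.72, and without MACS replicate 3 the tested one differed by 0.07. Wnt4, Wnt6 and Wnt10a each held cultures of 1 group that stood further apart than the groups did. Wnt4, a kidney and gonad ligand, read 10.26 and 8.78 in MACS against 10.11 and 6.86 in PP6. Wnt6 read 7.72 and 9.82 in MACS against 10.48 and 9.68 in PP6, and its MOE430A probe set went the other way, at -0.54. Wnt10a, the neighbour of Wnt6 on chromosome 1 and known from skin and teeth, read 7.22 and 9.51 against 9.41 and 7.26, with a difference of -0.03 ± 1.29. The 8 ligand genes with no tested probe set were Wnt1, Wnt2b, Wnt3, Wnt5b, Wnt8a, Wnt9b, Wnt10b and Wnt16. Their differences ranged from -1.57 for Wnt9b to 1.68 for Wnt3.

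**Figure D1:**
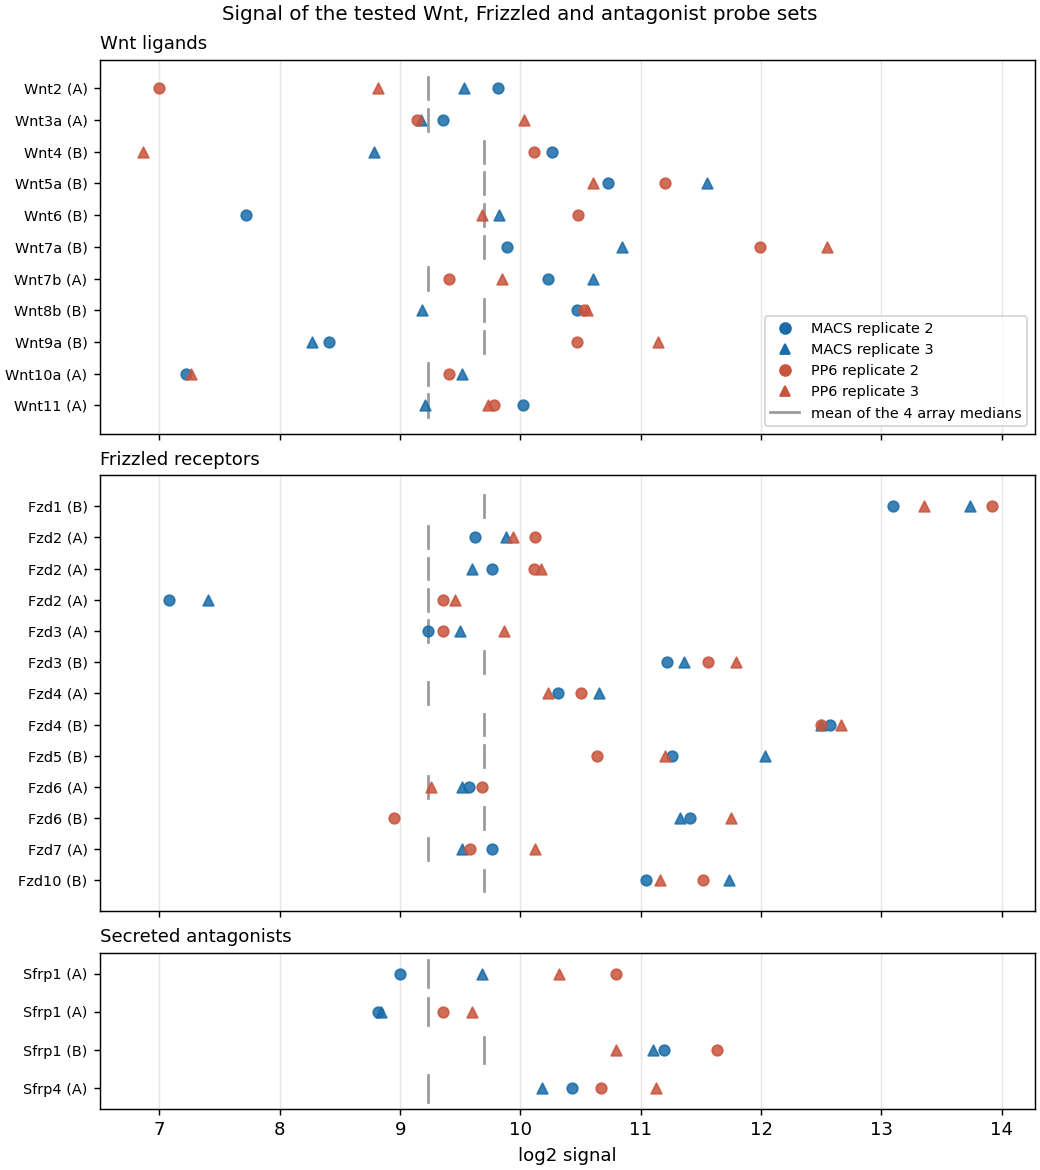
Log2 signal of the 28 tested probe sets in each culture (blue MACS, red PP6, circles replicate 2, triangles replicate 3), by class, with the array type in brackets after the gene and a grey tick at the mean array median. In 10 probe sets both PP6 points lie to the right of both MACS points. These are Wnt9a, Wnt7a, Wnt8b, Sfrp4, the upper 2 of Sfrp1, all 3 of Fzd2 and the MOE430B one of Fzd3. Of the 13 Frizzled probe sets, 8 have groups that overlap.

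Frizzled receptors are membrane proteins that bind Wnts through a cysteine-rich domain. Their 13 tested probe sets, from 8 genes, had a median difference of 0.21 log2 units, against 0.01 over all tested probe sets, and 8 were positive, beside 51% of all tested probe sets. With arrays centred on their medians the receptor median was 0.09. None had an unadjusted p under 0.05, and the share with overlapping groups was near that over all tested probe sets, as given above. Fzd4, the receptor of Norrin in retinal vessels, read 12.57 and 12.50 in MACS and 12.50 and 12.66 in PP6 on MOE430B, a difference of 0.05 ± 0.20 (SE), and -0.11 ± 0.31 on MOE430A. Fzd1 read 13.10 and 13.74 in MACS against 13.92 and 13.35 in PP6, a difference of 0.21 ± 0.32. Fzd10 read 11.04 and 11.73 against 11.52 and 11.16, a difference of -0.05 ± 0.32. In these 3 genes the cultures of 1 group spread at least as widely as the group means differed.

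Fzd5, a receptor known from eye and placental vessels, was the single tested receptor probe set with both PP6 cultures below both MACS cultures. It read 11.26 and 12.03 in MACS and 10.64 and 11.20 in PP6, with a difference of -0.72 ± 0.37 (SE) and an adjusted p of 0.528 in limma. The gap between MACS replicate 2 and PP6 replicate 3 was small, and the difference was -0.34 without MACS replicate 3. All 3 Fzd2 probe sets were higher in both PP6 cultures. The main one read 9.76 and 9.6 in MACS and 10.11 and 10.17 in PP6, a difference of 0.46 ± 0.35, and a second gave 0.28 ± 0.36. The third read 7.08 and 7.40 in MACS and 9.36 and 9.46 in PP6, a difference of 2.17 ± 0.92 with an adjusted p of 0.455 in limma. It passed the filter only through PP6, just above the array median, and was 0.25 with the floor there.

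Fzd3 and Fzd6, receptors of the polarity branch that guide axons and orient hair, showed how far probe sets of 1 gene can part. Of 6 Fzd3 probe sets, 5 were positive and 1 negative, from -2.60 to 2.72. The 2 tested ones were close to each other, at 0.24 ± 0.46 on MOE430A and 0.38 ± 0.24 on MOE430B (SE). The MOE430B one read 11.22 and 11.36 in MACS and 11.56 and 11.79 in PP6. The extremes came from dim probe sets: 9.49 and 9.07 against 5.83 and 7.53 for the lowest, and 4.38 and 8.94 against 9.22 and 9.55 for the highest, where 1 MACS culture made the gap. Fzd6 differed by -0.07 ± 0.44 on MOE430A and by -1.02 ± 0.87 on MOE430B, where PP6 replicate 2 alone was low at 8.95 beside 11.41, 11.33 and 11.75. Fzd8 and Fzd9 had no tested probe set and differed by -0.18 to 0.61. Of the 23 member genes with several probe sets, 14 had probe sets of both signs.

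**Figure D2:**
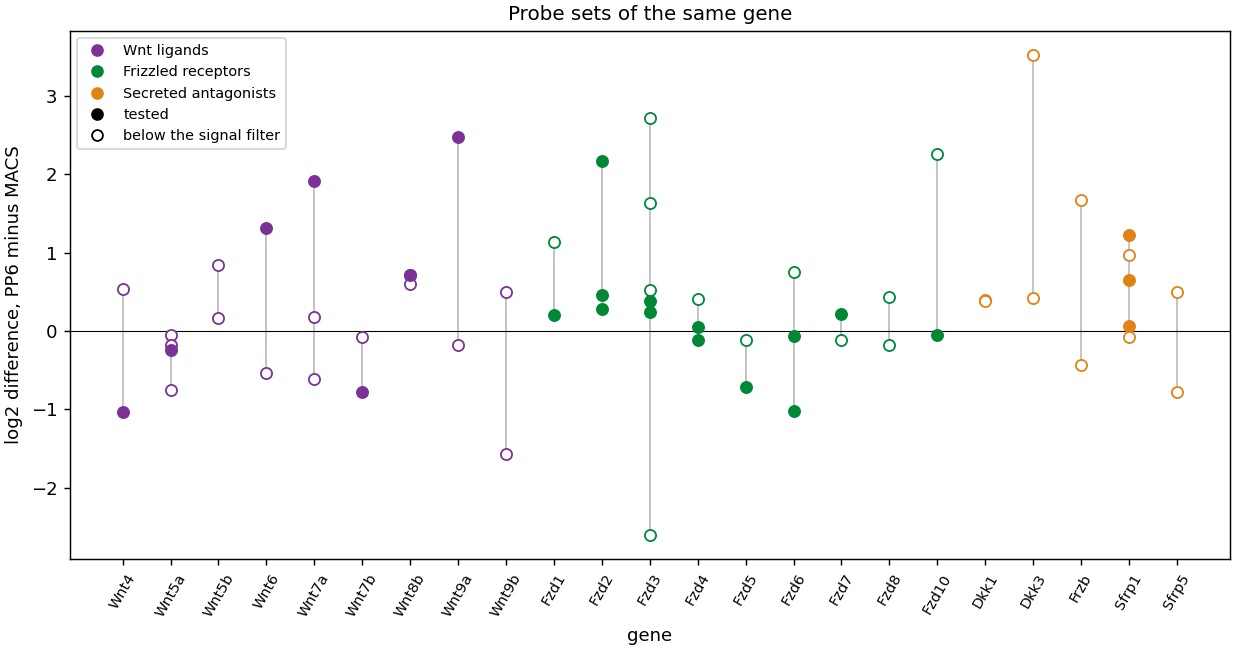
Log2 difference, PP6 minus MACS, of each probe set of the 23 genes with several, filled where tested and open where below the signal filter. Fzd3 runs from -2.60 to 2.72, the 4 Wnt5a probe sets stay between -0.75 and -0.05, and the 3 tested Sfrp1 probe sets lie between 0.07 and 1.22.

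The secreted antagonists were mostly dim, and 14 of their 18 probe sets were higher in PP6 on average, with a median of 0.55 log2 units over all 18 against 0.07 over all probe sets. Of the 18, 8 had both PP6 cultures above both MACS cultures and 1 had both below. The shares over all probe sets were 23% and 17.6%. Probe sets of 1 gene share a target, and 5 of the 18 belong to Sfrp1, so the count is not of independent genes. Sfrp1, which binds Wnts through a Frizzled-like domain, read 9.0 and 9.68 in MACS and 10.79 and 10.32 in PP6 on its main probe set. The difference was 1.22 ± 0.42 (SE), 2.32-fold, with a p of 0.0293 and an adjusted p of 0.394 in limma. Leaving out MACS replicate 2 gave 0.88 and leaving out PP6 replicate 2 gave 0.98, with unadjusted p of 0.1 and 0.149. The name of this probe set ends in _x_at, which marks probes that can match other transcripts. A second one read 8.82 and 8.84 against 9.36 and 9.6, a difference of 0.65 ± 0.52, and passed the filter only through PP6. The third, on MOE430B, read 11.19 and 11.10 against 11.63 and 10.79, with groups that overlapped at 0.07 ± 0.35. The Sfrp1 probe sets therefore gave no single answer.

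Sfrp4, a relative known from bone, was above the array median in all 4 cultures. It read 10.43 and 10.18 in MACS and 10.67 and 11.13 in PP6, a difference of 0.59 ± 0.31 (SE) with an adjusted p of 0.539 in limma. The groups did not overlap, but MACS replicate 2 and PP6 replicate 2 lay close together, and the difference was 0.36 without PP6 replicate 3. Sfrp2 read 7.88 and 8.65 against 9.07 and 8.88, below the array median in all 4, with both PP6 cultures above both MACS cultures. Dkk3, a divergent Dkk protein, had the largest difference of any member, on a probe set that no culture held above the array median. It read 5.78 and 4.53 in MACS and 8.67 and 8.68 in PP6, a difference of 3.52 ± 0.81 in a limma fit with no filter, where its adjusted p was 0.42. The other Dkk3 probe set read 8.61 and 9.01 against 8.98 and 9.48, a difference of 0.42. Frzb, an Sfrp relative of cartilage, read 5.85 and 6.11 against 6.62 and 8.69 on one probe set and differed by -0.43 on the other. The Lrp-binding antagonists were also below the filter, with differences of 0.38 and 0.40 for Dkk1, 0.82 for Dkk2 and -0.52 for Dkk4. Sfrp5 differed by 0.50 and -0.78, and Wif1, read at 2.06 to 5.85, by 1.02.

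Over all 76 members without the filter, the median difference was 0.26 log2 units, with 0.06 for ligands, 0.26 for receptors and 0.55 for antagonists. Positive differences numbered 16 of 32, 17 of 26 and 14 of 18, against 54.3% of all probe sets. In that limma fit 5 members were higher and 1 lower with an unadjusted p under 0.05, and the shares over all 45037 probe sets were 4.92% and 4.15%. The 5 were the probe sets of Wnt9a, Wnt7a, Sfrp1, Fzd2 and Dkk3 described above, and the 1 was the dim Fzd3 probe set at -2.60. A difference of at least 1 log2 unit was found upwards in 14 members and downwards in 5, where 12.7% and 8.34% of all probe sets had one. These counts describe the members and were given no test of their own. Among the tested members these were 5 and 3, beside 6.62% and 5.11% of tested probe sets. In the same way, 10 of the 28 tested members had both PP6 cultures above both MACS cultures and 3 below, beside 22.5% and 21.7% of tested probe sets. The filter fixed the direction of 3 of the 10, Wnt9a at 2.47, Fzd2 at 2.17 and Sfrp1 at 0.65, and of Wnt2 below. Wnt9a, this Fzd2 probe set and Wnt2 are also in the counts of 5 and 3. The filter did so for 2.86% of all tested probe sets upwards and 3.09% downwards. As shares of the tested members, the 10 and 3 were 35.7% and 10.7%. Whether these counts set the members apart from the other probe sets was not tested.

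**Figure D3:**
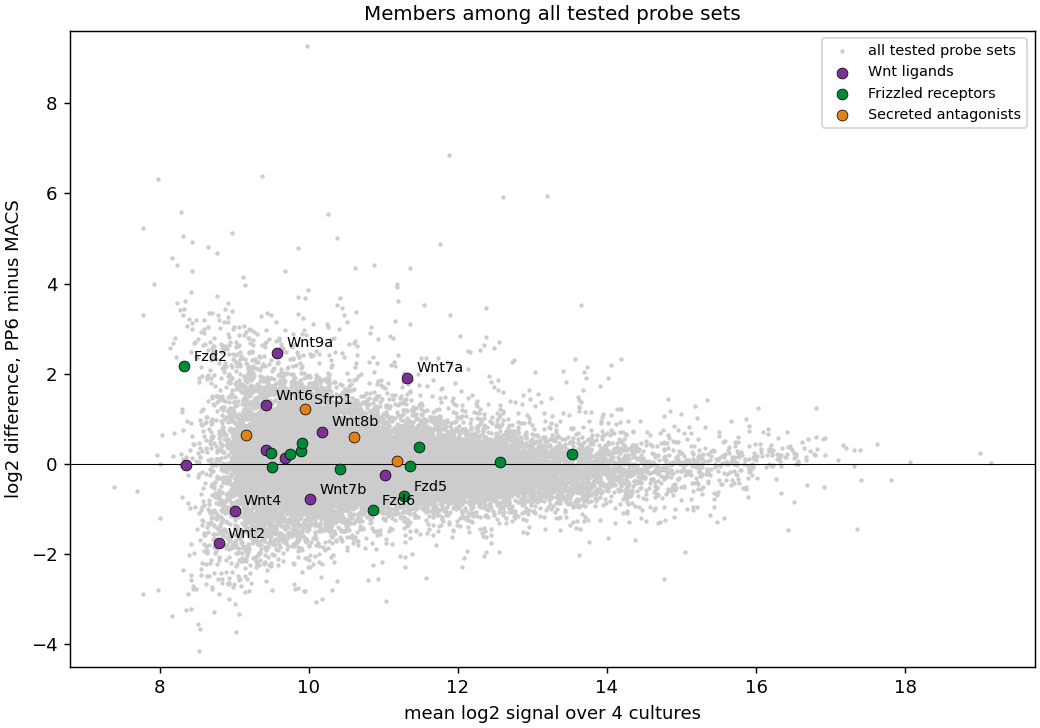
Log2 difference, PP6 minus MACS, against mean log2 signal for all 23963 tested probe sets (grey) and the 28 tested members (purple ligands, green receptors, orange antagonists). Names are given where the difference is at least 0.7 in size, and Wnt9a at 2.47 and Wnt7a at 1.91 lie highest but for one dim Fzd2 probe set at 2.17.

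Outside these families, 7 of 14 genes of Wnt secretion and extracellular control were tested, 6 with a positive difference, and their median was 1.16 log2 units. Rspo2, Rspo3 and Apcdd1 passed the filter only through PP6, which fixed their sign, so the count and the median do not describe the group. The other 4 were Igfbp4 at 1.90, Wls, which carries Wnts to the cell surface, at 0.33, Notum, which inactivates them, at 0.28, and Tinagl1 at -0.97. Of the 7, 3 were higher and 0 lower with an unadjusted p under 0.05, and over all 12278 genes the shares were 5.81% and 5.44%. None passed after adjustment in limma, but Igfbp4 had an adjusted p of 0.0264 with MOE430A tested alone and 0.0478 under the floor, in a range up to 0.498 over 14 alternatives. R-spondins are secreted proteins that bind Lgr4, Lgr5 and Lgr6 and strengthen Wnt signalling, and Rspo2 and Rspo3 were 2 of the 3. Rspo2, which is needed for limb growth in mice, read 9.07 and 9.35 in MACS and 10.61 and 10.84 in PP6. Its difference was 1.51 ± 0.35 (SE), with a p of 0.00605 and an adjusted p of 0.314 in limma, or 1.08 under the floor. Rspo3 read 9.0 and 9.42 against 10.06 and 10.69, a difference of 1.16 ± 0.43 with an adjusted p of 0.414 in limma. Both lay below the array median in MACS and above it in PP6, and the untested Rspo1 and Rspo4 differed by -0.87 and 0.65. Igfbp4, which carries insulin-like growth factors and can also inhibit Wnt signalling, read 12.79 and 13.31 in MACS and 14.97 and 14.94 in PP6, with its groups far apart. The difference was 1.90 ± 0.24 with an adjusted p of 0.255 in limma, and its 4 other tested probe sets differed by 1.15 to 2.32. Apcdd1, a membrane inhibitor, read 5.90 and 6.33 against 9.37 and 9.48, but differed by 0.26 under the floor, and its other tested probe sets gave -1.43 and 0.13. Porcn, Sost, Sostdc1, Cer1 and Ndp also missed the filter, with differences of both signs.

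The list of co-receptors and other receptors and that of transducers had medians near 0. Of the 10 tested genes in the first list, which also holds Znrf3 and Mcc, no co-receptors themselves, 3 were positive, with a median of -0.18. At an unadjusted p under 0.05 in limma 0 were called in either direction, where 5.81% of all genes were higher and 5.44% lower. Lrp6 read 11.17 and 11.28 in MACS and 10.96 and 11.05 in PP6, a difference of -0.22 ± 0.24 (SE). Lrp5 missed the filter, with a difference of 2.51 on its 1 probe set. Znrf3, a ligase that removes Frizzled from the membrane, differed by -0.55 ± 0.31, Gpc6 by -0.53 ± 0.39 and Mcc by -0.28 ± 0.28. The 4 other tested probe sets of Gpc6 ran from -1.40 to 0.02, and the 3 of Mcc from -1.79 to 1.54, so those of Mcc disagreed in sign. Of 28 tested transducers 0 were higher and 1 lower by that p, not above the same shares of all genes, with a median of 0.07. The 1 was Camk2d, a kinase of the calcium branch, at -0.90 ± 0.34 and an adjusted p of 0.422 in limma, and its 2 other tested probe sets gave -1.79 and 0.19. Ctnnb1, which encodes beta-catenin, read 15.18 and 15.20 in MACS and 14.99 and 14.96 in PP6, a difference of -0.21 ± 0.19. Daam1, a polarity protein, differed by -0.57 ± 0.23, and Bcl9l and Prickle2 by 0.43 ± 0.26 and 0.32 ± 0.20.

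Of 12 tested target genes of beta-catenin, 3 had a positive and 9 a negative difference, with a median of -0.24. The 9 include Axin2, at 0.00 after rounding. The filter fixed the sign of Twist1, at -0.76, and of Nkd2, at 2.13. Among untested targets, the Ccn4 probe sets gave 1.87 and 2.9, Cdx1 0.77, Sp5 -0.49 and Tnfrsf19 -1.16 to 0.89. Tcf7 had no probe set of 1 symbol. With an unadjusted p under 0.05 in limma 1 was higher and 2 lower, beside 5.81% and 5.44% of all genes. Axin2, a feedback inhibitor and the target most widely used as a readout, read 9.39 and 9.14 in MACS and 9.43 and 9.09 in PP6. Its groups overlapped, with a difference of 0.00 ± 0.50 (SE). It was above the array median in only 1 culture of each group, and its other probe set missed the filter. Lef1, at once a target and a nuclear partner of beta-catenin, read 10.79 and 10.86 against 10.80 and 10.45, a difference of -0.20 ± 0.28. Ccnd1, the gene of cyclin D1, read 12.19 and 12.66 against 11.42 and 11.52, a difference of -0.95 ± 0.25 with an adjusted p of 0.333 in limma, and its 2 other tested probe sets gave -1.76 and -1.72. The Notch ligand gene Jag1 read 12.82 and 13.05 against 12.28 and 11.66, a difference of -0.96 ± 0.28. Ccn5, a matricellular gene, read 8.52 and 9.70 against 10.53 and 10.46, a difference of 1.38 ± 0.51. Myc differed by -0.65 ± 0.29. Both cyclin D1 and Myc answer to many signals besides Wnt.

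**Figure D4:**
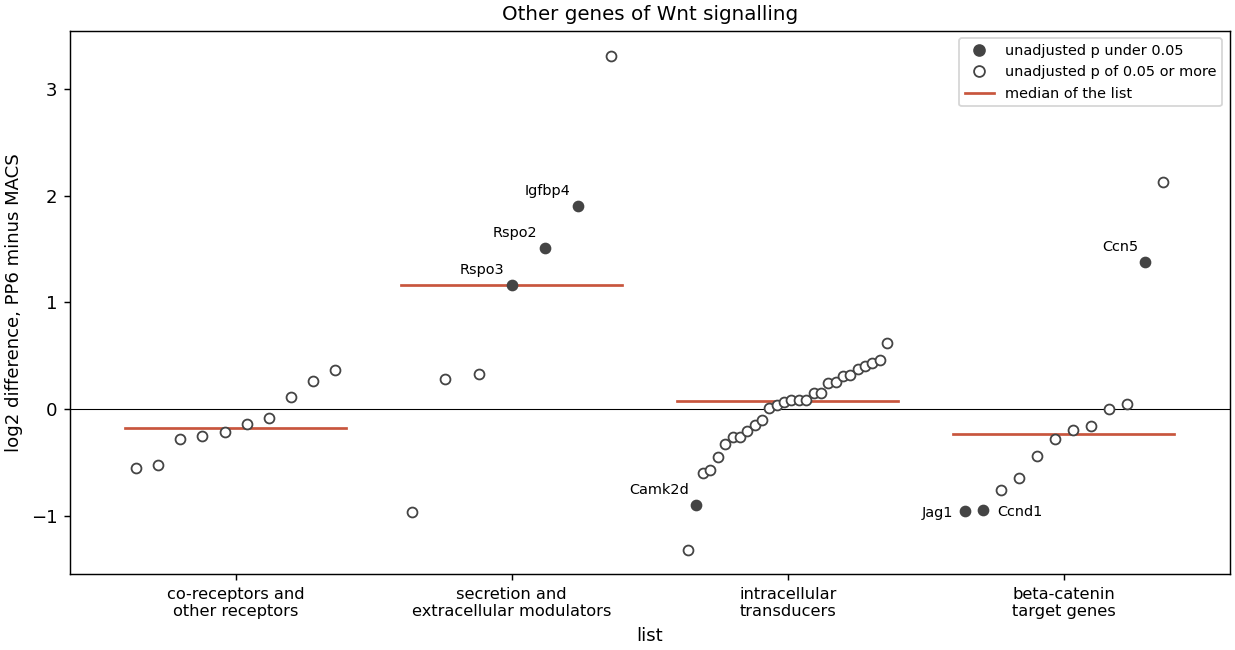
Log2 difference, PP6 minus MACS, of each tested gene in 4 lists of other Wnt signalling genes, sorted within a list, filled where the unadjusted p was under 0.05, with the list median as a red line. Medians are -0.18 for co-receptors and other receptors, 1.16 for secretion and extracellular modulators, 0.07 for transducers and -0.24 for target genes. The 1.16 does not describe its list, because Rspo2, Rspo3 and Apcdd1 passed the filter only through PP6, which fixed their sign.

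Markers of other cells also differed between the preparations, with some cell type lists higher in PP6 and the endothelial list lower. All 8 leukocyte markers were higher in PP6, 7 of them at an unadjusted p under 0.05 in limma, beside 5.81% of all genes. Their summed signal was 6247 and 6461 in MACS and 54249 and 215902 in PP6. Most of the PP6 sums came from S100a8 (24200 and 95850) and S100a9 (18770 and 87500). Such sums are weighted to the brightest probe sets, and those of the Schwann, pericyte, endothelial and satellite lists add both array types. For 9 muscle differentiation markers, all higher, the sums were 4703 and 5173 against 25019 and 61392. Acta1, Tnnc1, Tnnt1, Tnni1, Myh3 and Mylpf among them passed the filter only through PP6, which fixed their sign. Myog, Atp2a1 and Ckm did not, and they differed by 2.26, 2.42 and 1.5 log2 units. The 7 tested fibroblast markers, 6 of them higher, summed to 61957 and 110658 against 190083 and 180038, and the 5 tested pericyte markers, all higher, to 23612 and 30376 against 43327 and 37468. Schwann cell markers gave 1677 and 2721 against 6002 and 5976 over 3 genes, of which Cdh19 passed the filter only through PP6. Endothelial markers went the other way, all 8 lower, with 38217 and 30564 against 20526 and 22763, and 7 satellite cell and myoblast markers gave 20958 and 29864 against 29651 and 24102. No marker had a signal of 0, and in MACS both cultures were below the array median for Ptprc, Cd53 and S100a9 among leukocyte genes. The filter fixed the sign of these leukocyte genes too. On their main probe sets, Wnt9a and Wnt7a were, like the leukocyte and muscle sums, highest in PP6 replicate 3. That culture also had the lowest RNA concentration. The main Sfrp1 probe set was highest in PP6 replicate 2. Other probe sets differed: a second tested one of Sfrp1 was highest in PP6 replicate 3, at 9.6. An untested one of Wnt7a was lowest there, at 6.03. The part of these cells and of RNA quality in the Wnt differences was not tested.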

How the data were processed

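RNA of 4 cultures, 2 MACS and 2 PP6, was measured on MOE430A and MOE430B arrays, 8 in all. The deposited intensity values are MAS5 signals on a linear scale, per the submitters' processing notes, with a version not given in the sources used here. Deposited arrays had a 2% trimmed mean of 1501 on MOE430A and 1500 on MOE430B, so the authors had scaled them. No detection calls were used, and the number of arrays limits the precision. Scanner settings, used only for counting, gave 1 chip lot, 1 hybridisation day and 1 station per array type, and 4 fluidics modules for 4 cultures.

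Probe sets were named through the platform annotation with symbols updated by Entrez identifier to RefSeq. On MOE430A 20393 had 1 symbol, 691 several and 1606 none, and on MOE430B 14674, 245 and 7656. Arrays of each type were brought to 1 common trimmed mean, log2-transformed with no pseudocount and stacked, without control probe sets. The 2 groups were set against each other by limma 3.58.1 under R 4.3.3, using eBayes and an intensity trend, two-sided, on 2 cultures a group, with Benjamini-Hochberg adjustment over 23963 probe sets and 2 residual degrees of freedom, or 5.67 after moderation. With 2 cultures a group, 33.3% is the smallest two-sided p of an exact permutation test. The fit was tested on simulated data.

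For a gene with several tested probe sets the main one was on MOE430A before MOE430B, then the one of highest mean signal. Members named with values were, in each class, up to 8 of smallest p and up to 4 of highest mean signal, all others by their range, and up to 4 of smallest p from each pathway list with Axin2, Lef1, Tcf7, Ctnnb1, Lrp5 and Lrp6 where measured. Probe sets under the filter, the neighbours, Wnt3a, Wnt11 and Wnt10a are given with values beyond that rule, where a group is described, and were chosen after their values were seen. The members and lists were chosen with earlier results of these data known. Alternatives were quantile normalization, median centring, a pseudocount at the 20th percentile (128.0 and 200.9), a floor at the array median, testing all probe sets, a 75th percentile filter, eBayes with no trend, each array type alone, no _x_at or _s_at probe sets, the replicate number as a block, and leaving out each culture.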

Additional observations from a re-analysis of the deposited data

How the results depend on the processing

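With limma 0 probe sets passed the adjusted threshold in either direction, beside 1364 upwards and 1396 downwards with an unadjusted p under 0.05. Counts past the adjusted threshold were 18 higher and 5 lower with the floor at the array median, 55 and 16 with each array type alone, all on MOE430A, and 5 higher with the filter at the 75th percentile, and no Wnt, Frizzled or antagonist probe set was among them. The replicate number as a block gave 2 higher probe sets and changed no call of a member. The deviations of same-numbered cultures correlated at -0.033. With 2 cultures a group, this cannot decide whether the numbers pair cultures. Leaving out each culture gave 0 to 1 higher and 0 to 0 lower. At an unadjusted p under 0.05, no filter gave 2216 higher and the filter at the 75th percentile 739, as the number tested changed. Leaving out each culture gave 648 to 1790 higher, where the absence of PP6 replicate 2 gave 863 and that of PP6 replicate 3 gave 648, and 918 to 1348 lower, where 918 came without MACS replicate 2. Median centring shifted all differences by -0.12 as a median and gave 948 higher and 1983 lower. 

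The median over ligands, 0.14, was 0.84 with the filter at the 75th percentile, which left 2 probe sets, and ran from 0.11 to 0.59 over the cultures left out. That over receptors, 0.21, was 0.00 at that filter and ran from 0.08 to 0.30. That over antagonists, 0.62, was 0.07 there, on 1 probe set, 0.45 with the floor, and ran from 0.51 to 0.79. Of 21 named members 10 kept their sign under the alternatives run and none passed the adjusted threshold, with 0.117 as the lowest adjusted p. Signs turned with the floor for Wnt4 (0.02) and Wnt10a (0.03). Over the cultures left out, differences crossed 0 for Wnt4 (-2.66 to 0.59), Wnt5a (-0.65 to 0.17), Wnt3a (-0.13 to 0.76), Wnt11 (-0.26 to 0.54), Wnt10a (-1.17 to 1.11), Fzd1 (-0.10 to 0.53), Fzd3 (-0.01 to 0.50), Fzd7 (-0.05 to 0.48), Fzd4 (-0.28 to 0.06), Fzd6 (-0.28 to 0.15) and Fzd10 (-0.39 to 0.30). The cause was not tested. With no detection calls, differences of dim probe sets have no stated bound.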

Other observations

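Wnt genes that lie next to each other were read in pairs, with no test between them. Wnt9b and Wnt3, adjacent on chromosome 11, read 10.93 and 9.26 in MACS against 8.08 and 8.97 in PP6 for the MOE430B probe set of Wnt9b, and 6.73 and 3.49 against 7.46 and 6.11 for Wnt3. Neither passed the filter, and the groups overlapped for Wnt3. The MOE430A probe set of Wnt9b differed by 0.50. Wnt10b and Wnt1, adjacent on chromosome 15, were below their array medians in all 4 cultures, with differences of -0.03 and 0.24.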
